A study of Mus musculus with 4 samples.

Results

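The genes described here are 42 germline genes, with roles in germ-cell fate, the piRNA pathway, meiosis and sperm formation, measured by mRNA-seq in mouse embryonic stem cells (mESCs). They were chosen by name and function, with earlier results of these data known, by a rule that itself uses no measured value, and lie outside the *Rhox* homeobox cluster. Each was found through its Ensembl identifier among the 37310 genes of the deposited table. *Meioc* is listed there under its older symbol Gm1564. They lie on 18 chromosomes, with *Tex11* and *Taf7l* on X. The cells were JM8, a line from the C57BL6/N strain, grown without feeder cells on gelatin in 2i + LIF medium, which holds 1 µM PD0325901 to inhibit Mek and 3 µM CHIR99021 to inhibit Gsk3. The 2 wild-type libraries came from the parental line. The 2 libraries labelled Bmal1-/- came from 1 clonal line in which CRISPR/Cas9 left a frameshift indel in each allele of *Bmal1*, the gene of a core transcription factor of the circadian clock. Because each genotype stands for 1 line, differences between lines other than the *Bmal1* alleles cannot be told apart from the genotype.

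Germ cells silence transposons with piRNAs, small RNAs loaded on Piwi proteins and made in granules rich in tudor-domain proteins. They then halve their chromosome number in meiosis, for which homologous chromosomes are broken by Spo11, paired along cohesin-bound axes, joined by the synaptonemal complex and recombined with Dmc1. Many genes of these programs are kept at a low level, in somatic cells by DNA methylation of CpG-rich promoters and in mESCs by PRC1.6. Promoter methylation in the cells used here is not part of these data. PRC1.6 is a Polycomb complex in which Mga with Max binds the E-box CACGTG and E2f6 binds TCCCGC-type sites. The same E-box is the sequence bound by Bmal1 with Clock.

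The deposited values are reads per gene divided by 1 factor for each library (trimmed mean of M values, TMM), and levels below are in this unit. Reads on genes were between 21504265 and 23329034 in the 4 libraries, so that 3 reads corresponded to values of 2.82 to 3.19. The targeted gene, listed as *Arntl*, was at 678 and 733 in wild-type and at 556 and 590.3 in the libraries labelled Bmal1-/-, or 81.2% of wild-type (log2 change −0.30, standard error 0.07, adjusted p = 0.0011, limma with Benjamini-Hochberg adjustment). Its mRNA thus does not identify the genotype here, and libraries are named by their labels. For its *Bmal1*-/- cells the paper reports that RT-qPCR found no *Bmal1* mRNA and that Western blot found no Bmal1 protein. The 10 mESC markers on the list used, such as *Pou5f1* and *Nanog*, summed to between 158290 and 165680 in the 4 libraries, with *Tfcp2l1* (0.40) and *Tbx3* (0.36) the highest log2 changes and *Sox2* (−0.17) and *Zfp42* (−0.14) the lowest. Markers of other cell types moved with the label. The 6 two-cell-like markers found in the table, among them *Zscan4c*, *Zscan4d* and *Zfp352*, summed to 163 and 201 in wild-type and to 2273 and 2221 in the libraries labelled Bmal1-/-, and all 5 that were tested rose, from *Zscan4c* (log2 change 3.79) and *Zscan4f* (3.69) to *Dub1* (3.48) and *Zfp352* (3.46). Trophoblast markers summed to 1791 and 1799.5 against 801 and 751, with *Elf5*, *Gata3* and *Hand1* too low to test. Most of that sum was *Tfap2c*, which is also a germ-cell gene, and the other 6 summed to 362 and 356 against 225 and 211. Of these, *Eomes* (−0.83) and *Cdx2* (−0.74) fell, and *Krt7* (−0.44) did not pass. *Cdx2* missed the threshold in 1 of 15 other settings, DESeq2 (adjusted p = 0.096). Neural markers summed to 4207 and 3942 against 2551 and 2364, and without *Tubb3* to 1421 and 1429.8 against 1359 and 1276, with *Fabp7* at 0 in every library. Most of the remainder was *Nes* (−0.08, adjusted p = 0.25), while *Pax6* fell from 45.3 and 24.4 to 9.39 and 9.54 (−1.71, adjusted p = 0.00034) and was called, and *Slc1a3* was at 0.19 (adjusted p = 0.39). Primitive endoderm markers summed to between 177 and 198 in every library, but single ones moved in opposite directions. *Sox7* fell from 46.4 and 52.1 to 5.64 and 12.4 (−2.41, adjusted p = 6.0e-06) and *Sox17* rose from 10.5 and 14.9 to 32.9 and 30.5 (1.27, adjusted p = 0.0020), both called. *Gata4* rose by 0.55, which missed the threshold in 4 of 15 other settings, and *Pdgfra* was at −0.13 (adjusted p = 0.73). Fibroblast markers summed to 69.5 and 75.4 against 108 and 97.3, with 2 of the 7 at 0. *Thy1* rose by 0.59 (adjusted p = 0.026) but missed the threshold in 8 of 15 other settings, and *Col1a1* was at 0.39 (adjusted p = 0.20). The part of these cells in the results below was not tested.

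Promoter sequence was examined first because germline genes are known for a shared promoter design. RefSeq (GRCm38.p6) gave the 250 bases before the start site for 37 of the 42 genes, and each stretch was found once, letter for letter, in the mm9 genome of the study. Promoters of *Piwil2*, *Tdrd6*, *Spo11*, *Tex11* and *Tex15* were not matched. The median promoter held 15 CpG dinucleotides and 59.2% G + C, against 6 CpG and 52.0% over 27025 promoters of the same length. The ratio of CpG observed to expected from base composition was 0.67 against 0.38. The E-box CACGTG, which reads the same on both strands, was present in 13 of the 37 promoters (35.1%), against 6.05% of all promoters. Among promoters with at least 10 CpG it was present in 12 of 30 (40.0%), against 9.49% of 10328. The E2F-type letters TCCCGC, searched on both strands and thus also as GCGGGA, were in 14 promoters (37.8%), against 16.9% of all. With at least 10 CpG these shares were 43.3% and 37.2%. Both motifs occurred together upstream of *Ddx4*, *Mael*, *Sycp3* and *Hormad1* (10.8%, against 1.47% of all promoters). No match of one motif shared a base with a match of the other. Matches are a description of these windows and say nothing of binding in these cells.

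The 4 genes with both motifs are shown 5′ to 3′ on the strand of the gene, ending at the start site, with matches to either motif in capitals. The stretches lie in mm9 at chr13:113442519-113442768 (minus strand) for *Ddx4*, chr1:168168876-168169125 (minus) for *Mael* and chr3:95363349-95363598 (plus) for *Hormad1*. For *Sycp3* only the 30 bases around its nearer E-box are given (chr10:87922277-87922306, plus), since the window runs into an annotated exon of the gene.
Ddx4: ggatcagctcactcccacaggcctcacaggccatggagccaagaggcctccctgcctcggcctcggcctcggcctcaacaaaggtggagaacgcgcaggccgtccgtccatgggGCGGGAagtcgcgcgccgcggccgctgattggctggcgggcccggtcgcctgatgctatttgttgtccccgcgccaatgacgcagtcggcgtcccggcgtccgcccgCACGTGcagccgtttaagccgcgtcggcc
Mael: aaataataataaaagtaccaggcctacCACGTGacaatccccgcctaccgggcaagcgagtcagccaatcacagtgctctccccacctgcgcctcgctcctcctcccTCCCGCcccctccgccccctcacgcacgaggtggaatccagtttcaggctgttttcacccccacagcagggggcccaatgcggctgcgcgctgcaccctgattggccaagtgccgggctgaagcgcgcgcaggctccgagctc
Hormad1: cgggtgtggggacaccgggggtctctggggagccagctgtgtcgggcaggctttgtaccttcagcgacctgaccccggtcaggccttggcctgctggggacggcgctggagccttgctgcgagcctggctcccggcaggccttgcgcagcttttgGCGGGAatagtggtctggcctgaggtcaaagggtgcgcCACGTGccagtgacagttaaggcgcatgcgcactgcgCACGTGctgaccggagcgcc
Sycp3: acgggcatggagCACGTGctaggaggcggg

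Of the 12 genes that rose in the libraries labelled Bmal1-/-, *Stk31*, *Sycp1* and *Brdt* held an E-box, *Rpl10l*, *Tex19.1* and *Smc1b* an E2F-type match and *Kit* 2 such matches. *Dazl*, *Stra8*, *Dpep3* and *Tdrd7* held neither motif, and the promoter of *Piwil2* was not matched. Shown first are 4 of those with a match, at chr6:49345288-49345537 (plus) for *Stk31*, chr3:102740024-102740273 (minus) for *Sycp1*, chr5:107760123-107760152 (plus, 30 bases, since the *Brdt* window also overlaps its annotated exon) and chr12:67385389-67385638 (minus) for *Rpl10l*.
Stk31: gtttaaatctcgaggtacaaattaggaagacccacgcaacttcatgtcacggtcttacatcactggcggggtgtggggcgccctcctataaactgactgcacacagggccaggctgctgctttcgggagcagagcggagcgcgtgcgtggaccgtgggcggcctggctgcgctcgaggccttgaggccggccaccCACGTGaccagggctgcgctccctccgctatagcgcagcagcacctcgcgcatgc
Sycp1: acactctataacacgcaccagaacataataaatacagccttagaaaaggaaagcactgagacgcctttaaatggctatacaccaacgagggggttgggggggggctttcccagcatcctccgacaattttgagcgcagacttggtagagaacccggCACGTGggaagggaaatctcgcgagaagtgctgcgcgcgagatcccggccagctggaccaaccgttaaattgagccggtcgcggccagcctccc
Brdt: cgcaggcacagtCACGTGgcagaccctggc
Rpl10l: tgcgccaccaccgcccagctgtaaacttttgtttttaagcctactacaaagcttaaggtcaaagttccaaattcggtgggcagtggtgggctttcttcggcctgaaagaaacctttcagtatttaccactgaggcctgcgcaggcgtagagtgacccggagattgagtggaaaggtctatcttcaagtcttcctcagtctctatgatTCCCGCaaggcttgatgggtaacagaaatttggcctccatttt

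The remaining germline genes that changed by over 2-fold, *Dazl*, *Dpep3* and *Prdm1*, had no match to either motif, and their windows are shown for contrast, with no capitals. They lie on the minus strand at chr17:50432946-50433195 for *Dazl*, chr8:108503320-108503569 for *Dpep3* and chr10:44178555-44178804 for *Prdm1*. The *Prdm1* window lies inside the gene as the mm9 annotation draws it, upstream of the RefSeq start.
Dazl: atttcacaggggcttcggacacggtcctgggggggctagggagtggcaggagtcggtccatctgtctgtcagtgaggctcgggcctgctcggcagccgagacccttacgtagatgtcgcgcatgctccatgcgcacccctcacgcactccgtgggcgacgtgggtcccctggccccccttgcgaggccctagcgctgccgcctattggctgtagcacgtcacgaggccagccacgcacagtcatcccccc
Dpep3: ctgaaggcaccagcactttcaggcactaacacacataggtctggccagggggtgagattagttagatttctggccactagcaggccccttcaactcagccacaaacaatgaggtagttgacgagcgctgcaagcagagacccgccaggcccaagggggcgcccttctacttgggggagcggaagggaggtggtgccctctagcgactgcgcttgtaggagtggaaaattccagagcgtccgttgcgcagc
Prdm1: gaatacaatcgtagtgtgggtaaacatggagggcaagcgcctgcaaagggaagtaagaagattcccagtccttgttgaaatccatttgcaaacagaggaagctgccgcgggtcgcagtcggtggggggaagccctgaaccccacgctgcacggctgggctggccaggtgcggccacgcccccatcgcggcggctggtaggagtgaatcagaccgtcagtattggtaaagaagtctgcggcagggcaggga

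**Figure D1:**
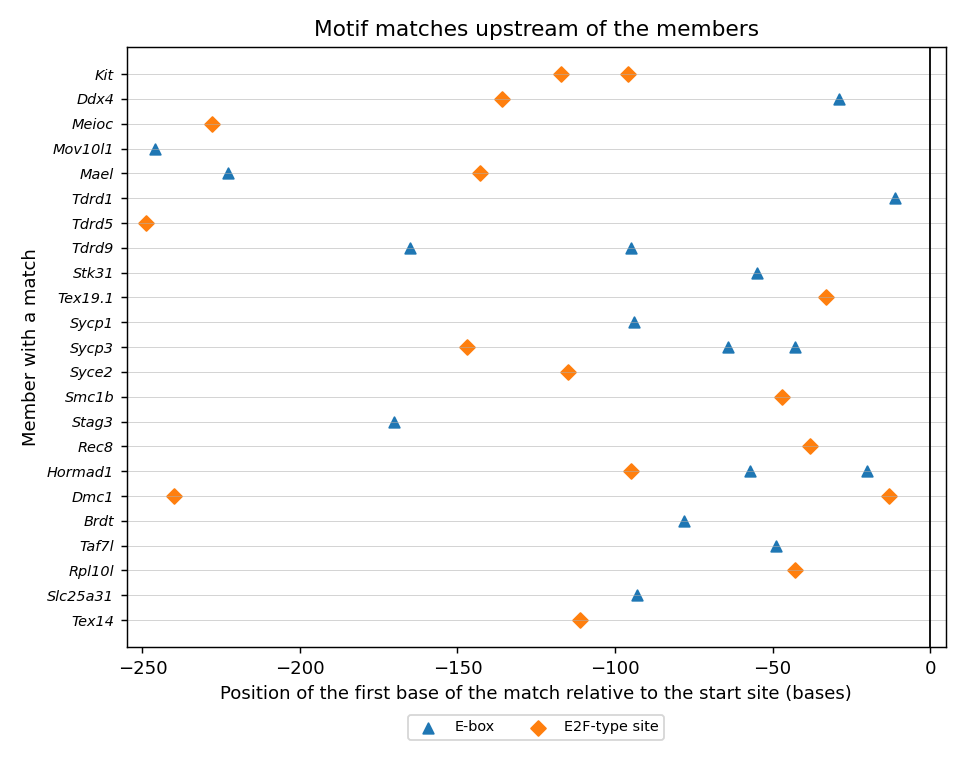
Positions of E-box (CACGTG, triangles) and E2F-type (TCCCGC or GCGGGA, diamonds) matches in the 250 bases upstream of the start site, which is at 0 on the horizontal axis (bases). Each line of the vertical axis is 1 of the 23 germline genes with a match, and matches were spread over the whole window, from 11 bases upstream in *Tdrd1* to 249 in *Tdrd5*.

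Fold changes were spread widely among genes with a motif and among genes without. The 12 tested genes with an E-box had a median log2 fold change of 0.46, with 3 that rose and 1 that fell (adjusted p under 0.05 by limma). The 21 without had a median of 0.19, with 8 that rose and 4 that fell. Beside these, all tested genes had a median of −0.03, and 24% of them rose and 28.6% fell. No difference by motif was tested. With an E2F-type match the median was 0.15 over 14 genes, and without it 0.48 over 19. The values of *Brdt* and *Dazl*, with the 2 highest fold changes, came from a promoter with and a promoter without an E-box.

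The comparison of the 2 libraries labelled Bmal1-/- with the 2 wild-type libraries asks how germline transcripts stood in the line with frameshift alleles of *Bmal1*. *Brdt*, *Dazl*, *Dpep3* and *Rpl10l* were up-regulated between 2.06-fold and 4.17-fold, and *Prdm1* was down-regulated to 0.463 of its wild-type level. Below, a gene rose or fell if its adjusted p-value was under 0.05 (limma on log2(value + 1), Benjamini-Hochberg adjustment over all 14510 genes whose mean value reached 10), and was called if its log2 fold change was also above 1 or below −1. Unnamed numbers in parentheses after the values of a gene are log2 fold changes, libraries labelled Bmal1-/- minus wild-type. Of the 42 genes, 36 were tested, and *Piwil4*, *Tdrd1*, *Tdrd6*, *Sycp2*, *Spo11* and *Mei1* were too low. Called were 4 of 36 as higher (11.1%), against 5.75% of all genes tested, and 1 as lower (2.78%), against 1.45%. Without the fold threshold 12 rose, where 24% of all genes did, and 5 fell, where 28.6% of all genes did. The remaining 19 did not pass. In all, 47.2% of the tested germline genes passed, against 52.6% of all genes in either direction, so the share that passed was near the background. The median log2 fold change was 0.34, with a range from −1.11 to 2.03, beside −0.03 over all genes. It was 0.17 without wild-type replicate 1 and 0.17 with quantile normalization. Both libraries labelled Bmal1-/- lay above both wild-type libraries for 19 of the 36 genes and below them for 6, beside 34.6% and 41.4% of all genes. In bulk RNA, a change in the number of cells with a transcript and a change in the RNA per cell cannot be told apart. The p-values rest on the spread between libraries that the study calls biological replicates. Limma moved this spread toward that of genes at a similar level, with 18.1 prior degrees of freedom.

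**Figure D2:**
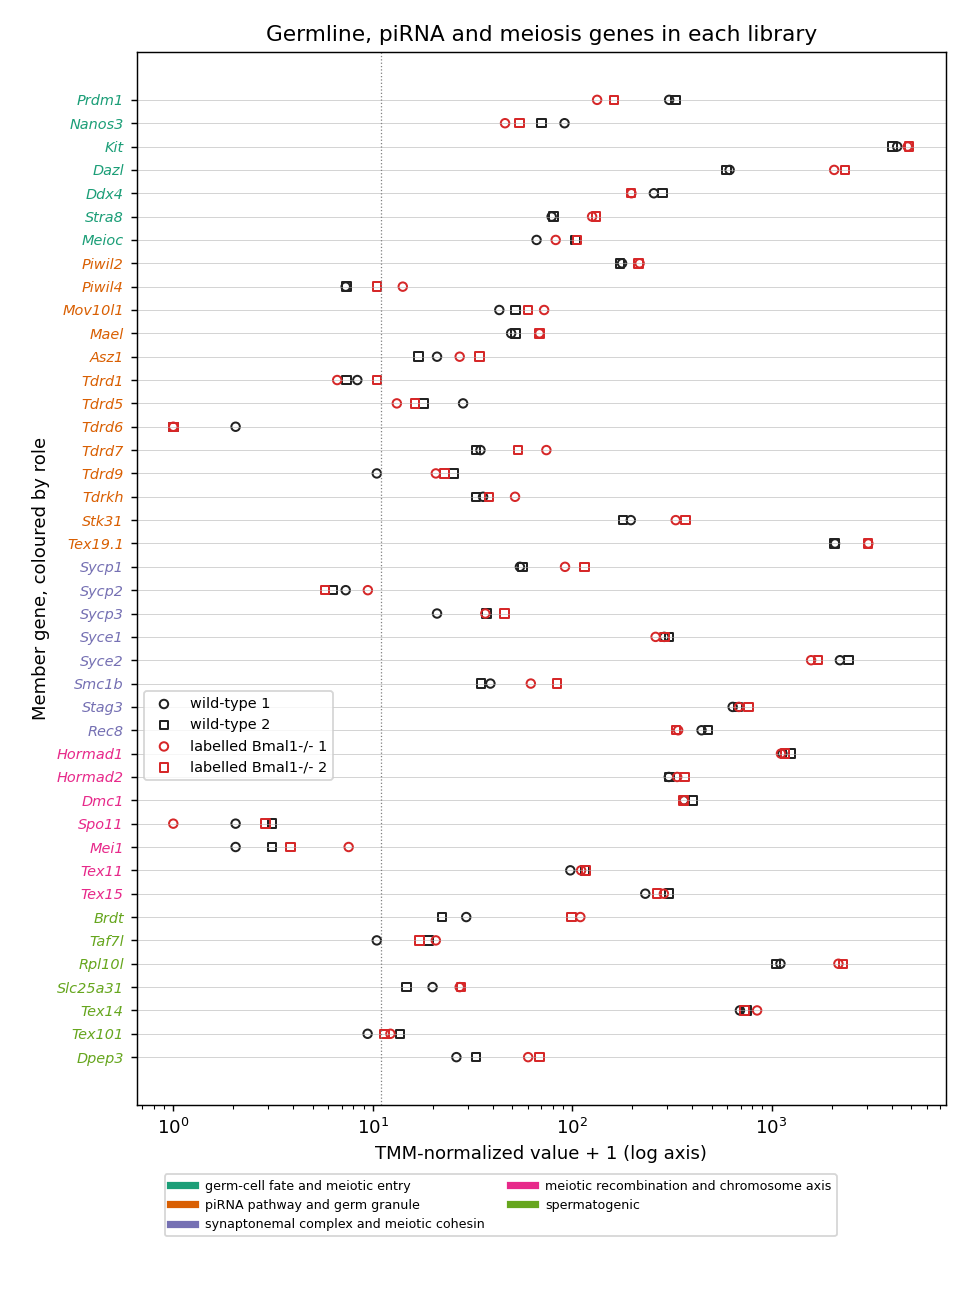
Value of each of the 42 germline genes in every library, as the TMM-normalized value + 1 on a log axis. Circles and squares are replicates 1 and 2, black wild-type and red labelled Bmal1-/-, gene names are coloured by role, and the dotted line marks a value of 10. Red symbols stand clearly to the right of black ones for *Dazl*, *Brdt*, *Rpl10l* and *Dpep3* and to the left for *Prdm1*, while most other genes differ by less than 2-fold.

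Among the 7 genes of germ-cell fate and meiotic entry, 3 rose (*Dazl*, *Stra8* and *Kit*), 3 fell (*Prdm1*, *Nanos3* and *Ddx4*) and *Meioc* did not pass. Of all tested genes 24% rose and 28.6% fell. *Dazl*, on chromosome 17 from 50418719 to 50432924 in mm9, encodes an RNA-binding protein that lets germ cells enter gametogenesis. Its values were 615 and 594 in wild-type and 2060.1 and 2336 in the libraries labelled Bmal1-/-, 3.64 times as high on average (log2 fold change 1.86, standard error 0.06, adjusted p = 2.0e-15, limma with Benjamini-Hochberg adjustment). The groups stood far apart, and in none of the 15 other settings was the log2 fold change below 1.77. *Stra8*, the gene that retinoic acid induces at meiotic entry, had 78.0 and 79.7 in wild-type and 125 and 131 in the libraries labelled Bmal1-/- (log2 change 0.69, standard error 0.15, adjusted p = 0.00048). *Kit*, the receptor for Kit ligand on which primordial germ cells depend, had 4266 and 4038 against 4815 and 4887, a rise of 0.23 (standard error 0.04, adjusted p = 0.00015) that was small but clear of the spread between replicates. Its adjusted p was up to 0.053 in other settings, the highest without limma's trend.

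*Prdm1* encodes the repressor Blimp1, needed to specify primordial germ cells, and lies on chromosome 10 from 44156983 to 44248307. It was at 306 and 329 in wild-type and at 132 and 161 in the libraries labelled Bmal1-/- (log2 change −1.11, standard error 0.11, adjusted p = 7.7e-08). Both libraries with the label were below both wild-type libraries. Without Bmal1-/- replicate 1 the log2 fold change was −0.97, so that the gene still fell but was no longer called. *Nanos3*, an RNA-binding protein that keeps migrating germ cells alive, had 90.6 and 69.0 against 45.1 and 53.4 (−0.68, standard error 0.19, adjusted p = 0.0061). The groups did not overlap, but it missed the threshold in 5 of 15 other settings, among them DESeq2 and leaving out wild-type replicate 1 or Bmal1-/- replicate 1, with adjusted p-values up to 0.093. *Ddx4*, the Vasa helicase used as a germ-cell marker, had 256 and 283 against 197 and 196 (−0.45, standard error 0.10, adjusted p = 0.00098). *Dazl* and *Ddx4*, often read together as markers of germ cells, thus went in opposite directions, and both passed the test. *Meioc*, which keeps meiotic prophase going, had 65.3 and 103 against 81.7 and 105, and its groups overlapped (0.17, adjusted p = 0.48). Without wild-type replicate 2 it passed, at 0.50 (adjusted p = 0.025).

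Of the 13 piRNA and germ granule genes, 10 were tested, 4 rose (*Stk31*, *Tdrd7*, *Tex19.1* and *Piwil2*), and none was called in either direction by limma, edgeR or DESeq2. By limma 7 had an unadjusted p under 0.05, while 7 rose by edgeR on whole reads and 3 by DESeq2. Of all tested genes 24% rose and 7.21% were called by limma. Shares of all genes that rose by edgeR or DESeq2 are not given here. The median log2 fold change of the 10 genes was 0.46, beside −0.03 over all genes, and 9 of the 10 values were above 0. *Stk31*, a kinase with a tudor domain, had values of 196 and 178 in wild-type and of 329.7 and 369 in the libraries labelled Bmal1-/- (log2 change 0.90, standard error 0.10, adjusted p = 3.1e-07). *Tdrd7*, a tudor protein of the chromatoid body, had 33.7 and 31.9 against 73.3 and 52.4 (0.90, standard error 0.22, adjusted p = 0.0020). The groups did not overlap in either gene, but the labelled libraries differed more from each other for *Tdrd7*, and without Bmal1-/- replicate 1 its adjusted p was 0.081, the highest over the settings tried. *Tex19.1*, which limits transposons in germ cells and placenta, was well expressed, at 2081 and 2066 against 3057 and 3040.0 (0.56, standard error 0.04, adjusted p = 2.2e-09). *Piwil2*, the Piwi protein Mili that binds primary piRNAs, had 177 and 173 against 217 and 215 (0.30, standard error 0.11, adjusted p = 0.024). Replicates of *Piwil2* lay close together and the groups apart, but it missed the threshold in 5 of 15 other settings, among them leaving out wild-type replicate 2 or either library labelled Bmal1-/-, with adjusted p-values up to 0.14 (DESeq2).

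The other 6 tested piRNA genes missed the threshold, and 3 of them by little. *Mov10l1*, the helicase that feeds piRNA precursors to Piwi proteins, had 42.1 and 51.0 in wild-type and 71.4 and 59.1 in the libraries labelled Bmal1-/- (log2 change 0.48, adjusted p = 0.052). *Mael*, needed for transposon silencing, had 48.5 and 51.0 against 67.6 and 67.7 (0.44, adjusted p = 0.056), and *Asz1*, a germ granule scaffold on mitochondria, had 20.02 and 15.9 against 26.3 and 33.4 (0.70, adjusted p = 0.053). Groups did not overlap in any of these 3, with the labelled libraries above, as was so for 34.6% of all tested genes. At about 15 to 76 reads a gene the counting error was large. The tudor genes *Tdrkh* (34.8 and 31.9 against 50.7 and 37.2), *Tdrd9* (9.48 and 24.4 against 19.7 and 21.9) and *Tdrd5* (27.4 and 17 against 12.2 and 15.3) had log2 fold changes of 0.37, 0.42 and −0.63 with adjusted p-values of 0.20, 0.38 and 0.14. Leaving out 1 library changed the outcome for 4 of these 6. Without wild-type replicate 2, *Mov10l1* (0.61, adjusted p = 0.020), *Tdrd9* (1.06, adjusted p = 0.025) and *Tdrd5* (−0.95, adjusted p = 0.038) passed, and without wild-type replicate 1 *Asz1* did (0.86, adjusted p = 0.029). Of the untested genes, *Piwil4*, the nuclear Piwi protein Miwi2, had 6 and 6 reads against 14 and 10, and its exons overlap Gm10706 on the opposite strand. *Tdrd1* had 7 and 6 reads against 6 and 10, and *Tdrd6* had 1 read in all, in wild-type replicate 1. These 3 genes were not tested.

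Of 8 genes for the synaptonemal complex and meiotic cohesin, 7 were tested, 2 rose (*Smc1b* and *Sycp1*) and 2 fell (*Syce2* and *Rec8*). The shares over all tested genes were 24% and 28.6%. *Sycp1*, the filament that spans the synaptonemal complex, had 53.7 and 55.2 in wild-type and 91.1 and 114 in the libraries labelled Bmal1-/- (log2 change 0.89, standard error 0.17, adjusted p = 0.00022). *Smc1b*, a meiosis-specific cohesin subunit, had 37.9 and 34 against 61.1 and 83.0 (0.97, standard error 0.21, adjusted p = 0.00068). Both labelled libraries were above both wild-type libraries in each gene. *Smc1b* stood just under the fold threshold and was called by edgeR and by DESeq2. *Rec8*, the cohesin subunit cleaved to separate meiotic chromosomes, moved the other way, with 445 and 480.1 against 339 and 332 (−0.46, standard error 0.08, adjusted p = 7.6e-05). *Syce2*, a central element protein, was at 2201 and 2437 against 1578 and 1709.8 (−0.50, standard error 0.06, adjusted p = 2.9e-07). Thus the filament gene *Sycp1* rose while the central element gene *Syce2* fell, from a level of 15.7 per kb of exon for the first and 1178 for the second in wild-type. *Stag3*, another meiotic cohesin subunit, had 637 and 679 against 685 and 764 (0.14, adjusted p = 0.11, and 0.041 without wild-type replicate 2), and *Syce1* had 289 and 305 against 261 and 289.9 (−0.11, adjusted p = 0.35). *Sycp3*, of the lateral element, had 20.02 and 36.1 against 35.7 and 44.8 with overlapping groups (0.55, adjusted p = 0.10). Its value ranged from 0.14 without wild-type replicate 1 to 0.96 without wild-type replicate 2 (adjusted p = 0.0043). Its exons overlap *Chpt1* on the opposite strand, and whether the reads were counted by strand is not given in the sources used here. *Sycp2* had 6 and 5 reads against 9 and 5 and was not tested.

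None of the 5 tested genes of meiotic recombination and the chromosome axis passed the test by limma, where 52.6% of all tested genes did. Of the 5, 1 had an unadjusted p under 0.05 by limma, 1 passed by edgeR (*Hormad2*) and none passed by DESeq2. Their median log2 fold change was 0.05. *Hormad1*, an axis protein that promotes break formation, had the most reads of the 5, at 1132 and 1246 in wild-type and 1114 and 1169 in the libraries labelled Bmal1-/- (−0.06, standard error 0.06, adjusted p = 0.43). Its relative *Hormad2* had 304 and 307 against 335 and 365 (0.19, standard error 0.09, adjusted p = 0.070 by limma, 0.044 by edgeR and 0.22 by DESeq2), with groups that did not overlap. *Dmc1*, the recombinase of meiotic strand exchange, had 362 and 404 against 364 and 361 (−0.08, standard error 0.08, adjusted p = 0.47). *Tex15*, required for repair of meiotic breaks, had 232 and 305 against 287 and 265 (0.05, adjusted p = 0.71), and *Tex11*, a crossover gene on X, had 96.9 and 115 against 109.9 and 116 (0.10, adjusted p = 0.59). The groups overlapped for these 3 genes and for *Hormad1*. *Spo11*, the enzyme that makes meiotic breaks, had 1 and 2 reads in wild-type and 0 and 2 in the libraries labelled Bmal1-/-, and *Mei1*, which acts with it, had 1 and 2 against 7 and 3. Neither was tested.

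Of the 7 spermatogenic genes 3 were called as higher, *Brdt*, *Rpl10l* and *Dpep3*, where 5.75% of all tested genes were. The other 4 did not pass. *Brdt* encodes the testis bromodomain protein that reads acetylated histones in spermatocytes and spermatids, and lies on chromosome 5 from 107760178 to 107816077. Its values were 28.4 and 21.2 in wild-type and 109 and 98.2 in the libraries labelled Bmal1-/-, 4.17 times as high on average (log2 fold change 2.03, standard error 0.21, adjusted p = 1.0e-07). These were 27 and 20 reads against 116 and 103, and the groups stood well apart. Its widely expressed relatives *Brd2* and *Brd3* had log2 fold changes of 0.17 and 0.13. *Rpl10l*, on chromosome 12 from 67384368 to 67385388, is an intronless copy of the X-linked ribosomal protein gene *Rpl10* that serves spermatocytes. It was at 1107 and 1051 in wild-type and at 2163 and 2283 in the libraries labelled Bmal1-/- (1.04, standard error 0.05, adjusted p = 1.4e-12). *Rpl10* itself, at 27272 and 27690.4 against 22488 and 23095, moved the other way (−0.27, adjusted p = 3.8e-06). Reads could be divided between such near-identical copies, and the level of *Rpl10l* is uncertain for that reason.

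*Dpep3*, a dipeptidase on the surface of testicular germ cells, had values of 25.3 and 31.9 in wild-type and of 59.2 and 67.7 in the libraries labelled Bmal1-/- (log2 change 1.13, standard error 0.22, adjusted p = 0.00026). The groups did not overlap, but the 2-fold call was lost with a pseudocount of 10 (0.93), with quantile normalization (0.86) and without wild-type replicate 1 (0.97), with an adjusted p-value under 0.05 in each. *Tex101*, the sperm membrane protein that Dpep3 binds, was at 8.43 and 12.7 against 11.3 and 10.5 (0.06, adjusted p = 0.91), with overlapping groups at the edge of the filter on low values. *Slc25a31*, the ADP/ATP carrier of germ cells, had 19 and 13.8 against 26.3 and 26.7 (0.68, standard error 0.31, adjusted p = 0.071), and passed without wild-type replicate 1 (0.89, adjusted p = 0.031). Its somatic relatives *Slc25a4* and *Slc25a5* fell by 0.31 and 0.57 on the log2 scale. *Taf7l*, a germ-cell form of a TFIID subunit on X, had 9.48 and 18.1 against 19.7 and 16.2 (0.42, adjusted p = 0.36), and *Tex14*, which builds the bridges between germ cells, had 693 and 748 against 845 and 730.4 (0.13, adjusted p = 0.15). Without wild-type replicate 2 or Bmal1-/- replicate 2 *Tex14* passed, at 0.18 and 0.23 (adjusted p = 0.036 and 0.038). Groups overlapped in *Taf7l* and *Tex14*.

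**Figure D3:**
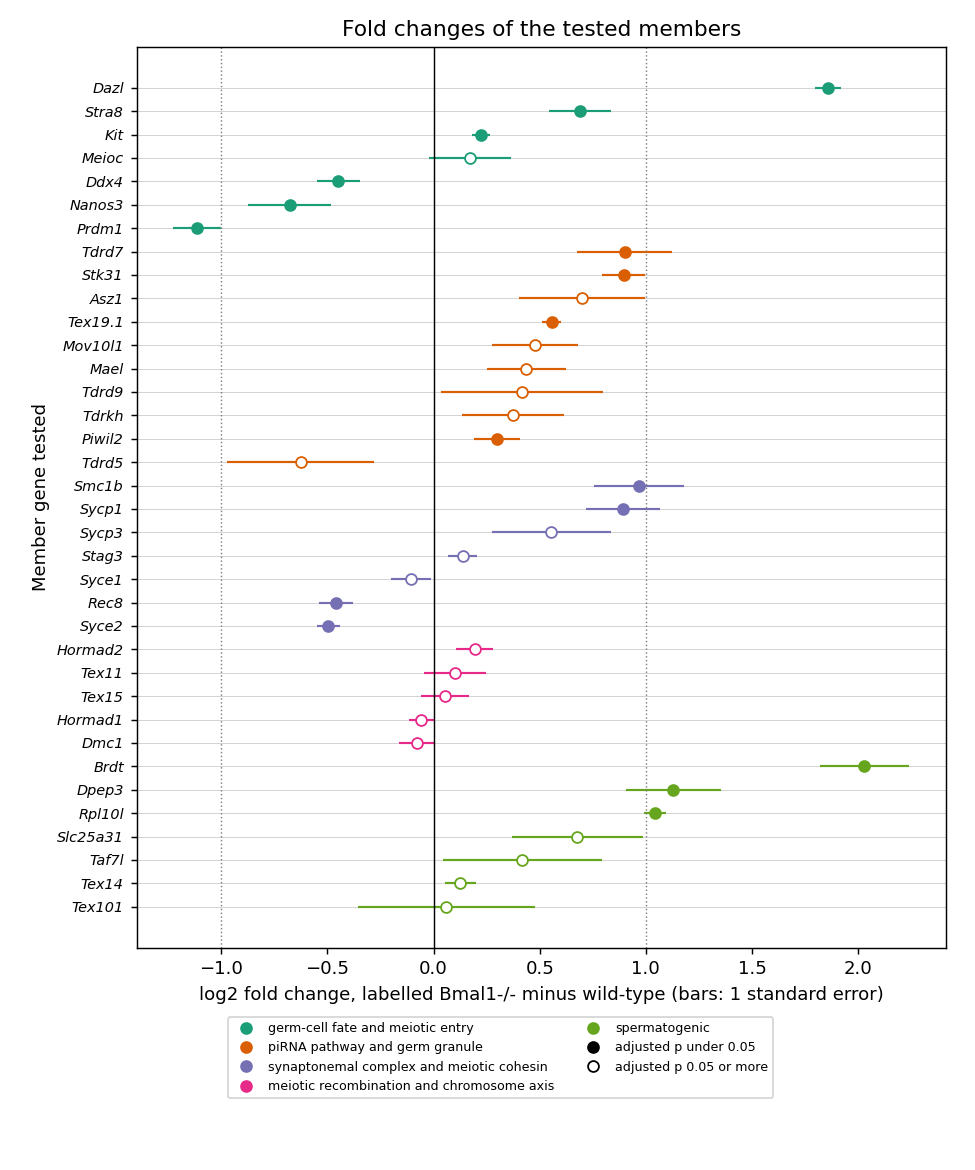
Log2 fold change of the 36 tested germline genes, libraries labelled Bmal1-/- minus wild-type, grouped by role, with bars of 1 standard error and dotted lines at 2-fold. Filled symbols have an adjusted p-value under 0.05. *Brdt* at 2.03 and *Dazl* at 1.86 stand apart, every recombination gene lies within 0.19 of 0, and germ-cell fate genes run from −1.11 to 1.86.

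Levels were also compared per kilobase of exon, which allows genes to be set against each other. In wild-type the highest were *Syce2* (1178 per kb), *Tex19.1* (1108) and *Rpl10l* (1057), and these 3 lay above percentile 90 of all tested genes. *Kit* (712) and *Hormad1* (688) followed, and then came *Syce1* (203), *Dazl* (201), *Dmc1* (174) and *Rec8* (168), close together. The replicate ranges of *Syce1* and *Dazl* overlapped. Against medians over all tested genes of 127 per kb in wild-type and 129.7 in the libraries labelled Bmal1-/-, 10 of the 36 germline genes were above in the first and 9 in the second. *Dazl* went from 201 to 729 per kb, and from percentile 60.0 to percentile 86.3 of tested genes. *Brdt* went from 4.86 to 20.3 per kb and from percentile 6.20 to 18.5, so that it remained a low transcript in mESCs despite its fold change. *Tdrd5* and *Tdrd9* were the lowest of the 36 germline genes, at 3.20 and 3.53 per kb in wild-type, with replicate ranges that overlapped, and at 1.98 and 4.33 in the libraries labelled Bmal1-/-.

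The tested genes on either side of each germline gene were examined for changes that span a locus, with genes named after their values were seen. Of 72 neighbours, 6 were called as higher and 1 as lower (9.72%, against 7.21% of all genes in either direction). *Dazl* lies next to *Rftn1*, a lipid raft protein gene, which rose by 1.25 on the log2 scale, and *Brdt* next to *Btbd8*, which rose by 1.18. *Sycp1* lies next to *Tspan2* (1.55), *Sycp3* next to *Mybpc1* (1.55), *Tex101* next to *Ceacam10* (1.57) and *Tex19.1* next to its copy *Tex19.2* (1.12). *Stra8*, which rose, lies next to 2010107G12Rik, which fell by 1.49. Neither neighbour of *Rpl10l*, *Dpep3* or *Prdm1* was called.

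Other germline genes outside the 42 were read by role. For these lists, the limma shares over all tested genes were 24% for a rise and 28.6% for a fall. Called as higher were 5.75% and as lower 1.45%. Of 14 further piRNA genes 12 were tested, 5 rose, 3 fell and 1 was called, with a median log2 fold change of 0.15. By DESeq2 4 rose, 1 fell and 1 was called. *Tex19.2*, the copy of *Tex19.1*, was at 59.0 and 57.4 in wild-type and 134 and 121 in the libraries labelled Bmal1-/- (1.12, adjusted p = 5.6e-06), and *Piwil1*, the Piwi protein of spermatids, at 46.4 and 43.6 against 87.4 and 81.1 (0.89, adjusted p = 0.00038). *Tdrd12*, a partner of Mili, fell from 1999.5 and 2206 to 1097 and 1166 (−0.89, adjusted p = 5.4e-11), and the helicase gene *Ddx25* fell by 0.47 (adjusted p = 0.044). *Ddx25* missed the threshold in 9 of 15 other settings, among them DESeq2 and each library left out, with adjusted p-values up to 0.31. Of 29 further meiosis genes 22 were tested, 3 rose and 6 fell, with a median of −0.02, and by DESeq2 2 rose, 3 fell and none was called. The helicase gene *Hfm1* (1.00, adjusted p = 0.020) and *Brca2* (0.70) were the highest, and *Mnd1* (−0.52) and *Hsf2bp* (−0.44) the lowest. *Hfm1* was the gene called, at 13.7 and 9.56 against 20.7 and 27.7, a value at the fold threshold. It missed the test in 6 of 15 other settings, among them DESeq2 and leaving out wild-type replicate 2 or Bmal1-/- replicate 2, with log2 changes from 0.66 to 1.24 and adjusted p-values up to 0.19.

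Among 15 other germ-cell regulators 8 were tested, 2 rose, 4 fell and 2 were called as lower, with a median of −0.65. *Tfap2c*, which acts with Prdm1 in specifying primordial germ cells and also serves trophoblast, went from 1429 and 1444 to 576 and 541 (−1.36, standard error 0.06, adjusted p = 1.7e-13). *Ifitm3* (Fragilis), an early germ-cell surface marker, went from 4358 and 4651 to 2255 and 2058 (−1.06, standard error 0.05, adjusted p = 4.8e-13). *Prdm14*, the other PRDM factor of this step, was slightly higher (0.29, adjusted p = 8.4e-05), as was *Sohlh2* (0.40, adjusted p = 0.00054). By limma *Prdm1*, *Tfap2c* and *Nanos3* were thus lower while *Prdm14* was higher. *Nanos3* missed the threshold in 5 of 15 other settings, among them DESeq2 (adjusted p = 0.093). *Kit* and *Dazl*, also genes of germ-cell fate, were higher, so these genes did not move in 1 direction. Of the other trophoblast markers, given above, *Eomes* and *Cdx2* were lower in the same libraries. The part of trophoblast-like cells in the value of *Tfap2c* was not tested. *Prdm14* is also on the mESC list. Of 19 late sperm genes 6 were tested, 1 rose (*Izumo1*, which lets sperm bind the egg, by 0.60, adjusted p = 0.043) and 1 fell (*Tbpl1*, by 0.19 on the log2 scale, adjusted p = 0.027), while *Crem* was at 0.08 and *Ybx2* at −0.19. *Izumo1* missed the threshold in 7 of 15 other settings and *Tbpl1* in 6, among them for both leaving out wild-type replicate 1 or Bmal1-/- replicate 1, with adjusted p-values up to 0.25 and 0.27. By DESeq2 none of the 6 passed or had an unadjusted p under 0.05. *Prm2*, *Acr*, *Akap4* and *Catsper1*, named for having no read, were at 0 in all 4 libraries, which allows values of up to 2.82 to 3.19 by counting error. Of 32 genes of the *Rhox* homeobox cluster 4 were tested, *Rhox6* and *Rhox9* were called as lower (−1.65 and −2.19), and *Rhox1* and *Rhox2a* did not pass (−0.13 and 0.07).

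Genes of the repressors named above were also measured. Over all tested genes limma called 7.21%, and 24% rose and 28.6% fell. A list of 14 or 12 genes with none called is near the first of these shares. None of the 14 subunits of PRC1.6 tested was called by limma, edgeR or DESeq2. By limma 11 had an unadjusted p under 0.05, 3 rose and 7 fell, with a median log2 fold change of −0.11. *Tfdp1* (−0.52) and *Cbx3* (−0.34) were the lowest and *Yaf2* (0.40) and *Mga* (0.38) the highest, and *Yaf2* missed the threshold in 5 of 15 other settings (adjusted p up to 0.21). *E2f6*, named for its binding site, was at 692 and 693 in wild-type and 660.4 and 702 in the libraries labelled Bmal1-/- (−0.02, adjusted p = 0.78). None of 12 genes of DNA methylation and H3K9 methylation was called by any of the 3 tools. By limma 9 had an unadjusted p under 0.05, 6 rose and 2 fell. *Dnmt3l*, the cofactor for methylation in germ cells, rose from 389 and 321 to 629 and 623 (0.82, adjusted p = 1.1e-07) and *Tet2*, which oxidizes methylcytosine, by 0.65, while *Dnmt3b* and *Ehmt2* fell by 0.26 and 0.22.

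**Figure D4:**
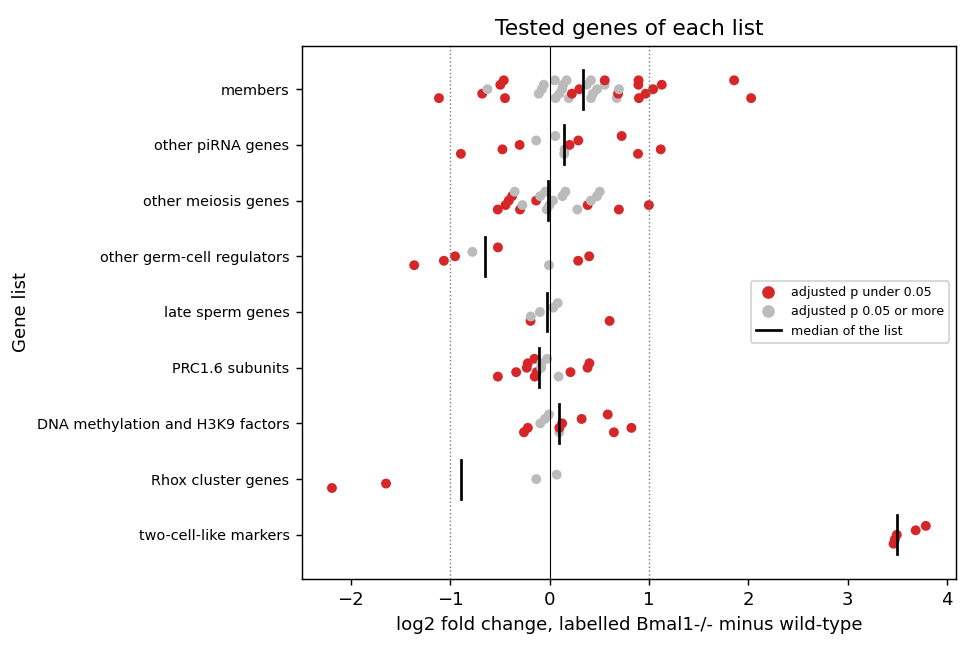
Log2 fold change (libraries labelled Bmal1-/- minus wild-type) of each tested gene in 9 lists, 1 line each on the vertical axis. Red points have an adjusted p-value under 0.05, vertical bars are medians and dotted lines mark 2-fold. The 36 tested of the 42 germline genes, on the first line, spread from −1.11 to 2.03 around a median of 0.34. The other germ-cell regulators have a median of −0.65, and the 5 tested two-cell-like markers lie near 3.50.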

How the data were processed

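The series holds mRNA-seq of 4 libraries (TruSeq Stranded mRNA from TRIzol RNA), 2 wild-type and 2 labelled Bmal1-/-. Per the labels' processing notes the authors used bcl2fastq 2.18.0.12, cutadapt 1.9.1 and STAR 2.5.2b with mm9. The counting step, its annotation and its use of strand are not given in the sources used here. The deposited table is a normalized signal, reads per gene over a TMM factor of each library. Every value was a whole multiple of the value of 1 read (100%, tolerance 0.01 read), so whole reads were recovered.

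Since the values are not counts, limma 3.58.1 (R 4.3.3, eBayes with trend, 18.1 prior degrees of freedom) was fitted on log2(value + 1) to 14510 genes with a mean of at least 10, without covariates, and p-values were adjusted over all of them. Fold changes are on this scale, which understates changes of low genes. Recovered counts were tested with edgeR 4.0.16 and DESeq2 1.42.0 as alternatives, the study's own choice being DESeq2. Other settings changed the filter, pseudocount, scaling, trend, block or libraries. The fit was tested on simulated data. The limit of 3 reads covers counting error only.

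The 42 genes, roles and lists were chosen with earlier results of these data known, and the lists were written by hand. All 42 genes are named. Of each other list the 2 highest and 2 lowest tested genes are named, and paralogs, neighbouring genes, E2f6 and genes without reads were named after their values were seen. Coordinates are mm9 with GENCODE annotation. Python 3.11.15 (pandas 2.3.3, matplotlib 3.10.9) read the tables and drew the figures. The raw reads and all other experiments of the study were not analysed here. One related gene is not reported here.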

Additional observations from a re-analysis of the deposited data

How the results depend on the processing

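Of 15 other settings, those with all 4 libraries called 3 to 5 germline genes as higher and 1 as lower. Over all genes they called 569 to 1130 as higher and 135 to 426 as lower. *Dazl*, *Brdt* and *Rpl10l* kept their call in every setting run. *Dpep3* lost it with a pseudocount of 10, with quantile normalization and without wild-type replicate 1, and *Prdm1* without Bmal1-/- replicate 1. *Smc1b* gained it with equal library totals, edgeR, DESeq2 and without wild-type replicate 1 or Bmal1-/- replicate 1, *Tdrd9* without wild-type replicate 2, *Sycp1* without Bmal1-/- replicate 1 and *Tdrd7* without Bmal1-/- replicate 2. With each library left out in turn, 4 to 6 were called as higher and 0 to 1 as lower, and the median log2 fold change was 0.17 to 0.40. The lone library of a group was then assumed to vary like the other group. This median was 0.17 with quantile normalization. With no fold threshold 12 germline genes were higher and 5 lower, beside 3488 and 4151 of all genes. Over all genes, 835 higher and 211 lower became 590 and 426 with quantile normalization and 569 and 135 with a pseudocount of 10. The causes were not tested.

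The sample titles number the libraries by experiment, with the same numbers for wild-type and for Bmal1-/-. Whether same-numbered libraries were grown or processed together is not given in the sources used here. The correlation of same-numbered deviations was −0.02 over 14510 genes, and that of crossed numbers was its mirror, 0.02. With so few libraries in each group this correlation cannot decide whether the libraries were paired. With the replicate block 4 germline genes were called as higher and 1 as lower, the same 5 genes. Over all genes, 844 were then called as higher and 212 as lower.

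The sign of some low or unchanged genes turned, and no turned value passed the test. With each library left out in turn the log2 fold change ran from −0.15 to 0.50 for *Meioc*, −0.22 to 1.06 for *Tdrd9*, −0.14 to 0.25 for *Tex15*, −0.021 to 0.22 for *Tex11*, −0.013 to 0.85 for *Taf7l*, −0.21 to 0.33 for *Tex101*, −0.13 to 0.011 for *Hormad1*, −0.15 to 0.00031 for *Dmc1*, −0.40 to 0.13 for the marker *Pdgfra*, −0.34 to 0.072 for *Rhox1* and −0.18 to 0.32 for *Rhox2a*. Quantile normalization gave −0.017 for *Meioc*, −0.076 for *Tex11*, −0.39 for *Tex101*, −0.26 for *Rhox2a* and −0.030 for the marker *Slc1a3*, and equal library totals 0.0026 for *Hormad1*. Of 540 germline gene values in these settings, 482 kept direction and side of the threshold. Depth limits the 6 untested genes.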
